A study of Rattus norvegicus with 4 samples.

Results

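The genes described here are the ligands and receptors of the glial cell line-derived neurotrophic factor (GDNF) family, chosen by symbol from a list of 7: the ligands Gdnf, Nrtn and Artn, the co-receptors Gfra1, Gfra2 and Gfra3, and the signalling receptor Ret. Of these, 6 were read from the gene table of 25399 genes, and Gfra1 was not analysed here. Droplet single-cell RNA sequencing was done on Sprague Dawley rats, with 1 sample in each of 4 groups: sciatic nerve at postnatal day 1, sciatic nerve at 8 weeks, dorsal root ganglion at postnatal day 1 and dorsal root ganglion at 8 weeks. The sex was not determined, the labels name no treatment or altered gene, and the labels describe a Schwann cell culture in serum without saying whether the sequenced cells had passed through it. The deposited matrix marks each of its 41444 cell barcodes with a suffix from 1 to 4, called library 1 to library 4 below, and no label ties a suffix to a tissue or an age. Libraries therefore could not be mapped to groups, tissues and ages were not set against each other, and no p-value is given.

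GDNF family ligands are secreted dimers that bind a membrane-anchored GFRα co-receptor, and the pair then engages the receptor tyrosine kinase RET. GDNF is known for pairing with GFRα1, neurturin (Nrtn) with GFRα2 and artemin (Artn) with GFRα3. In sensory ganglia the family is known for the survival and maturation of small-diameter nociceptors, and in nerve GDNF is known as a product of Schwann cells.

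A barcode was kept when 500 or more genes were detected in it and mitochondrial transcripts made up no more than 20% of its counts, which left 33175, with median depths of 6617, 1645.5, 4639 and 7554.5 UMIs (unique molecular identifiers, 1 for each captured transcript) in libraries 1 to 4. Levels are given as CPM, the UMIs of a gene per 1000000 UMIs summed over the barcodes of a class. A kept barcode was given the name of a cell class when at least 3 markers of that class were detected and its marker score was at least 1.5 times that of the next class. Such barcodes are called "neuron-like" and so on. Neuron-like barcodes numbered 0, 5013, 2060 and 2 in libraries 1 to 4, so that neurons were described in libraries 2 and 3 alone. Their markers included Snap25, Nefl, Nefm and Prph. Glia-like barcodes (Sox10, Erbb3, Cdh19 and others) numbered 258, 1172, 312 and 5960, and fibroblast-like barcodes (Col1a1, Dcn, Pdgfra and others) 6583, 400, 1255 and 1126. The glia-like barcodes of library 4 also carried fibroblast markers, at a median of 5982 CPM against 5513 for their own markers and against 60926 in the fibroblast-like barcodes. The 45 barcodes that passed the perineurial list in library 1 carried more fibroblast markers (11169) than their own (5873), and are named below by that list only. In library 3, 37.1% of kept barcodes passed no class. In libraries 2 and 3 every class of at least 20 barcodes carried neuronal marker UMIs, at medians of 2065 to 4912 and of 1562 to 2481 CPM outside the neuron-like barcodes. Between libraries, 191 barcode sequences occurred in 2 or more, in 383 barcodes.

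The upstream sequences of Ret and Gdnf are shown because these 2 genes had the largest shares of their UMIs in 1 library among the members: 50509 UMIs of Ret lay at 972, 40274, 9255 and 8 in libraries 1 to 4, and 640 of 678 UMIs of Gdnf lay in library 4. Each sequence is the 250 bases before the annotated start, taken from RefSeq on the GRCr8 assembly, not the Rnor_6.0 build that the submitters' processing notes name. Capitals mark matches, on either strand, to a TATA box (TATAAA), a GC box (GGGCGG) or a CCAAT box (CCAAT).
Ret, chr4:153040557-153040806, minus strand: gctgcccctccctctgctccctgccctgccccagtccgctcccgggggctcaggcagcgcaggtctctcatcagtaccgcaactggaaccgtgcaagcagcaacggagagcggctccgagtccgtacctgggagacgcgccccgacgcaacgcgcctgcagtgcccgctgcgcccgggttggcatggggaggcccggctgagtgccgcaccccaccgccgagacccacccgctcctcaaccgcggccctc
Gdnf, chr2:58621077-58621326, plus strand: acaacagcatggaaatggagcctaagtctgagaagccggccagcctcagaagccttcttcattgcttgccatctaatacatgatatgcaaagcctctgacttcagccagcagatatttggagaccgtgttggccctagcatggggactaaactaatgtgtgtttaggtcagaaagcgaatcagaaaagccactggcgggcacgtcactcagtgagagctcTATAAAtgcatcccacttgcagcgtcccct
The Gdnf window held 1 TATA box, a motif found in 12.9% of 33469 rat promoter windows of the same length, and 6 CpG dinucleotides against a median of 5. The Ret window held none of the 3 motifs and 25 CpG, more than 90.3% of the windows. Among the other members with a window, Artn held 2 GC boxes, Gfra1 held 1, Gfra3 held 3 and Nrtn held none, where 30.5% of windows had at least 1. A match is a description of the letters and not a binding site.

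Gdnf, the founding ligand, was a glial transcript of library 4. Glia-like barcodes there held 549 UMIs in 423 of 5960 barcodes (7.10%), a level of 10.9 CPM (95% interval 9.99 to 11.8; all intervals here are exact and cover counting error only). Fibroblast-like barcodes of that library held 16 UMIs, or 0.961 CPM (0.549 to 1.56), which gave a log2 ratio of 3.5 (2.79 to 4.32) for glia over fibroblasts. No Gdnf UMI was found in 59 endothelial-like, 82 mural-like and 93 macrophage-like barcodes of library 4, counts of 0 with upper limits of 2.13, 5.01 and 2.84 CPM. In the other libraries Gdnf was at the edge of detection. Mural-like barcodes of library 2 held 3 UMIs in 2 barcodes, or 6.30 CPM (1.30 to 18.4), an interval that covers the glial level of library 4. Glia-like barcodes held 2, 0 and 1 UMIs in libraries 1, 2 and 3, and the 0 of library 2 has an upper limit of 0.338 CPM. The glial level of library 1 was 2.43 CPM (0.295 to 8.79), against 0.0867 (0.0281 to 0.202) in its fibroblast-like barcodes. Neuron-like barcodes held 1 UMI in library 2 and 11 in library 3, or 0.163 CPM.

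Artn, the artemin gene, was a low transcript of stromal classes. Fibroblast-like barcodes held 3.64, 1.38, 2.25 and 5.23 CPM in libraries 1 to 4, and glia-like barcodes 1.22, 0.183, 0.689 and 1.45. Only in libraries 1 and 4 did the fibroblast level rest on more than 20 UMIs (210 and 87). The level was higher in 2 small classes. The 45 barcodes of the perineurial list in library 1 held 9 UMIs in 7 barcodes, or 30.7 CPM (14.0 to 58.3), and the 115 mural-like barcodes of library 2 held 7 UMIs, or 14.7 (5.91 to 30.3). Mural-like barcodes of libraries 3 and 4 held 2 and 1 UMIs.

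Nrtn, the neurturin gene, was found at low levels in neurons, glia and stroma. Neuron-like barcodes held 7.96 CPM in library 2 and 2.34 in library 3 (0.676 with a mitochondrial limit of 10%), glia-like barcodes 7.30, 1.83, 0.689 and 1.59 in libraries 1 to 4 (11.6 and 5.03 in libraries 1 and 2 under that limit, and 1.97 in library 3 with no gene minimum), and fibroblast-like barcodes 1.30, 0.690, 6.74 and 6.91 in libraries 1 to 4. Its highest levels were in erythroid-like barcodes, at 28.0 CPM in library 3 (10 UMIs in 54 barcodes; 13.4 to 51.5) and 30.2 in library 4 (26 UMIs in 61 barcodes; 19.7 to 44.2). These 2 values overlapped, and both intervals lay above those of the neuron-like (library 3 only), glia-like and fibroblast-like barcodes of their libraries. Mural-like barcodes, at 14.2 in library 3 (5.22 to 31.0) and 9.50 in library 4 (3.82 to 19.6), had an interval that overlapped the erythroid one in library 3. The erythroid-like barcodes also carried markers of other cells. Their medians were 1776 CPM for neuron and 1067 for fibroblast markers in library 3, and 2846 for fibroblast and 2252 for glia markers in library 4. Those of library 4 also held Gfra3 at 27.8, Gfra2 at 26.7 and 2 Gdnf UMIs. The part of other cells' RNA in these levels was not tested.

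**Figure D1:**
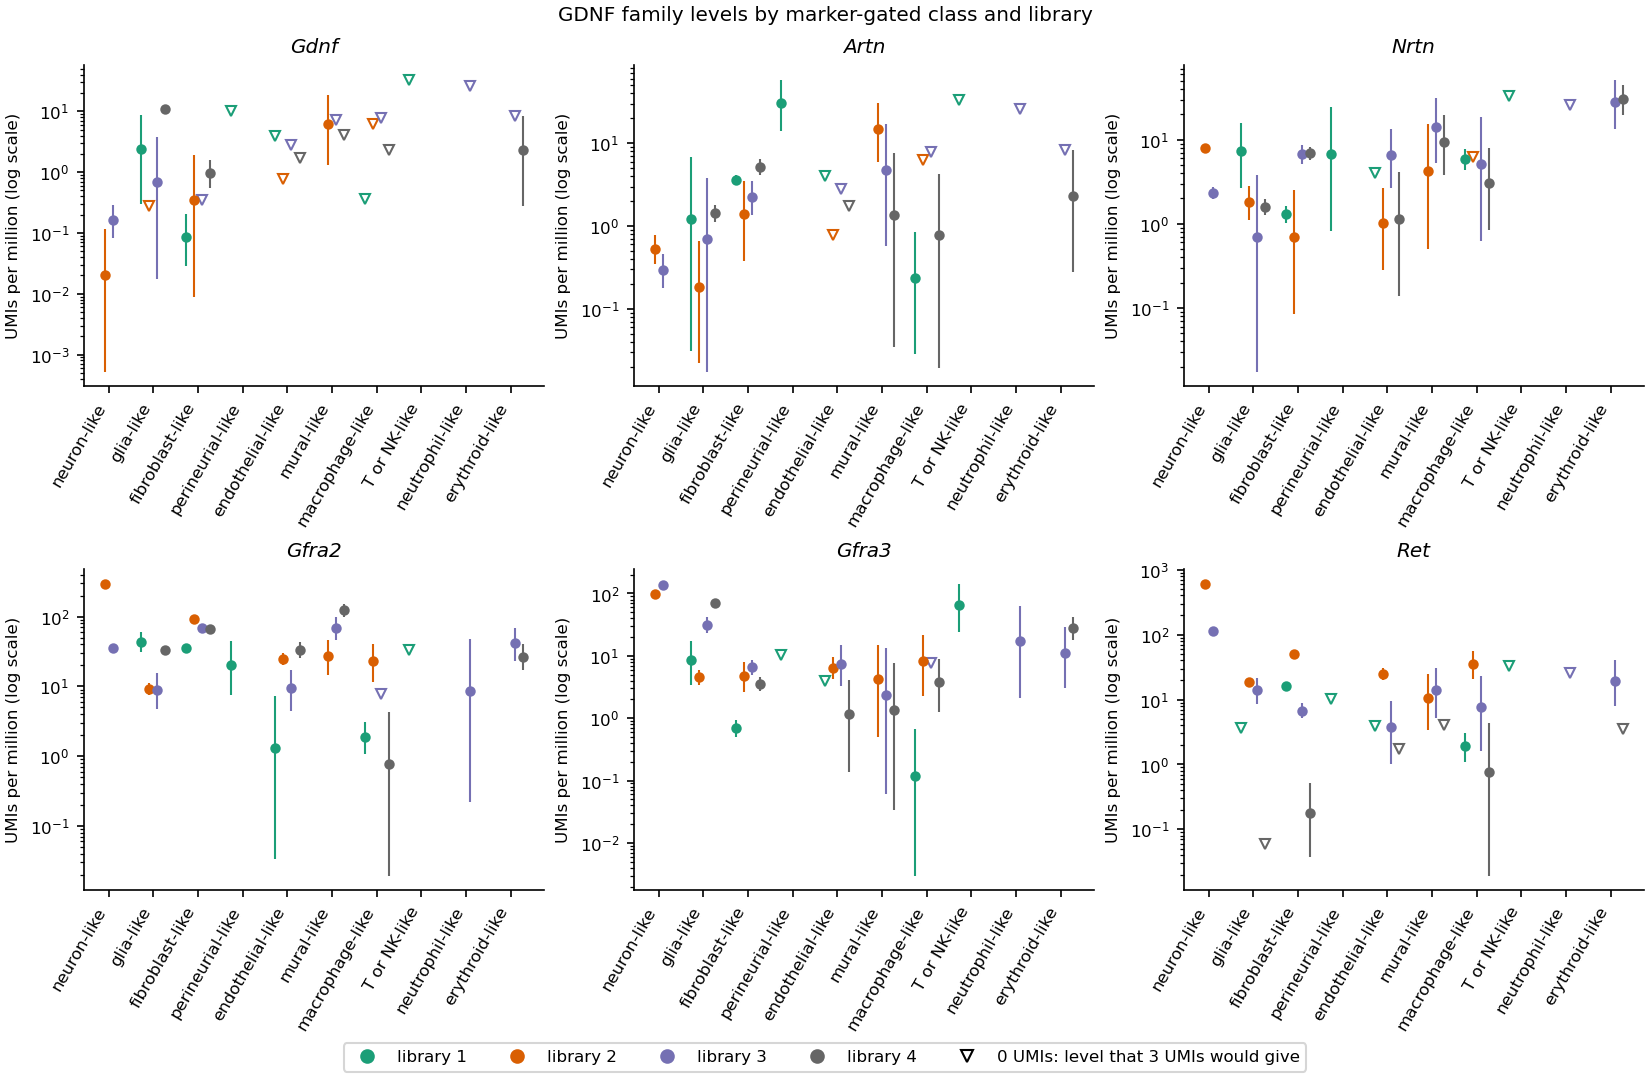
Level of each member in CPM on a log scale (vertical axis) by marker-gated class (horizontal axis), coloured by library; points are sums over all barcodes of a class, bars are exact 95% counting intervals, and open triangles mark classes with 0 UMIs, drawn at the level 3 UMIs would give. Ret stands at 601 and 115 in the neuron-like barcodes of libraries 2 and 3, and Gdnf at 10.9 in the glia-like barcodes of library 4.

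Gfra2, the co-receptor known for binding neurturin, was spread over neurons, fibroblasts, glia and mural cells. In library 2 it stood at 291 CPM in neuron-like barcodes (287 to 296), 92.5 in fibroblast-like (81.8 to 104) and 9.26 in glia-like barcodes (7.55 to 11.3). With a mitochondrial limit of 10% the glial value was 25.2, and in library 1 it was 28.0. Library 3 had another order: fibroblast-like barcodes were highest at 69.1 (63.6 to 74.9), beside mural-like barcodes at 68.8 (46.0 to 98.8), and neuron-like barcodes stood at 35.7 (34.3 to 37.2). Mural-like barcodes were highest in library 4, at 123.5 (99.5 to 152), above fibroblast-like at 67.2 (63.3 to 71.2), endothelial-like at 33.5 (25.5 to 43.3) and glia-like at 33.0 (31.4 to 34.6). In library 1 glia-like (43.8) and fibroblast-like barcodes (35.0) had overlapping intervals, and macrophage-like barcodes stood at 1.90. Neuronal RNA was measured beside it in the same barcodes. Per 1000 UMIs of 7 neuronal markers (Tubb3 and Uchl1 left out), Gfra2 stood at 75.6 in fibroblast-like and 21.4 in neuron-like barcodes of library 2, and at 68.7 and 1.98 in library 3. The level of neurons in library 2 was 151 CPM with a mitochondrial limit of 10% and 150.3 as a mean over single barcodes.

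Gfra3, the co-receptor known for binding artemin, marked neurons and part of the glia. Neuron-like barcodes held 96.8 CPM in library 2 (94.1 to 99.6) and 137 in library 3 (134 to 140). Glia-like barcodes held 8.51, 4.59, 31.7 and 71.2 in libraries 1 to 4, and fibroblast-like barcodes 0.693, 4.83, 6.63 and 3.60. In library 4, 1833 of 5960 glia-like barcodes (30.8%) had a Gfra3 UMI at a median depth of 7350.5, against 43 of 1126 fibroblast-like barcodes (3.82%) at 13397. The glial level of library 2 lay within the interval of the fibroblast-like barcodes (2.64 to 8.11), and was 10.1 with a mitochondrial limit of 10%. That of library 1 rested on 7 UMIs and was 2.33 under the same limit. The level in the 312 glia-like barcodes of library 3 was 16.6 with a class margin of 2 and 16.4 with at least 1000 genes. In library 1, 6 of 30 T or NK-like barcodes had 1 Gfra3 UMI each, or 66.0 CPM (24.2 to 144), and none of them had a Ret UMI.

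Ret, the kinase shared by all the ligands, was a neuronal transcript in libraries 2 and 3. Neuron-like barcodes held 29175 UMIs in library 2, or 601 CPM (594 to 608), and 7760 in library 3, or 115 (112 to 118). The named class with the next highest level was fibroblast-like in library 2, at 49.7 (41.9 to 58.5), and erythroid-like in library 3, at 19.6 (7.87 to 40.4). Both lay below the neuronal interval. A Ret UMI was detected in 35.8% of neuron-like barcodes of library 2 (34.5% to 37.2%) and 59.8% of library 3 (57.7% to 61.9%), at median depths of 1125 and 36129 UMIs. Thinned to 1000 UMIs each, with 2019 and 120 shallower barcodes left out, 30.1% and 8.66% were positive, an order opposite to that of the whole barcodes. In library 2 the neuron-like barcodes were of unequal depth: 648 held 10000 UMIs or more, and in these 95.8% had a Ret UMI and the level was 638 CPM, against 320 in the 4365 shallower ones. As a mean over single barcodes the level of library 2 was 323.

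Ret UMIs in glia were few, and their place among the non-neuronal classes differed between libraries. In library 2, 14.3% of 1172 glia-like barcodes had a Ret UMI at a median depth of 7906, against 14.5% of 505 endothelial-like barcodes at 6838 and 17 of 142 macrophage-like barcodes at 2939. The levels were 18.3, 24.6 and 35.4 CPM, so neither the glial share nor the glial level was above the endothelial one. With a mitochondrial limit of 10% the glial level was 30.2. The glia-like level of library 3 was 13.8 (20 UMIs in 312 barcodes; 8.42 to 21.3), beside 14.2 in mural-like and 3.74 (1.02 to 9.58) in endothelial-like barcodes, and it was 7.56 with a class margin of 2. In libraries 1 and 4, which had 0 and 2 neuron-like barcodes, no Ret UMI was found in 258 and 5960 glia-like barcodes, with upper limits of 4.49 and 0.0731 CPM.

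Ret was also seen in the fibroblast-like barcodes of library 1. They held 918 UMIs in 746 of 6583 barcodes (11.3%; 10.6% to 12.1%), or 15.9 CPM (14.9 to 17.0). Of the 746, 609 held 1 UMI, and the highest count was 5. No Ret UMI was found in 258 glia-like and 112 endothelial-like barcodes of that library, and 15 of 1994 macrophage-like barcodes (0.752%) had one, at a median depth of 3870.5 against 7806 for the fibroblasts. Neuronal RNA was nearly absent from library 1: the fibroblast-like barcodes held 510 UMIs of the 7 neuronal markers, or 1800 Ret UMIs per 1000, where the neuron-like barcodes of libraries 2 and 3 held 44.1 and 6.35. In library 2, 26.8% of 400 fibroblast-like barcodes had a Ret UMI (22.5% to 31.4%), above the endothelial-like and glia-like shares, at a median depth of 6862. Per 1000 neuronal marker UMIs these fibroblasts held 40.6 Ret UMIs (34.2 to 47.8), near the 44.1 of neurons, and endothelial-like barcodes held 20.9 (16.9 to 25.6). Library 3 gave 6.74 CPM in fibroblasts (5.11 to 8.74), an interval that overlapped the glia-like one, and library 4 gave 3 UMIs in 1126 barcodes.

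**Figure D2:**
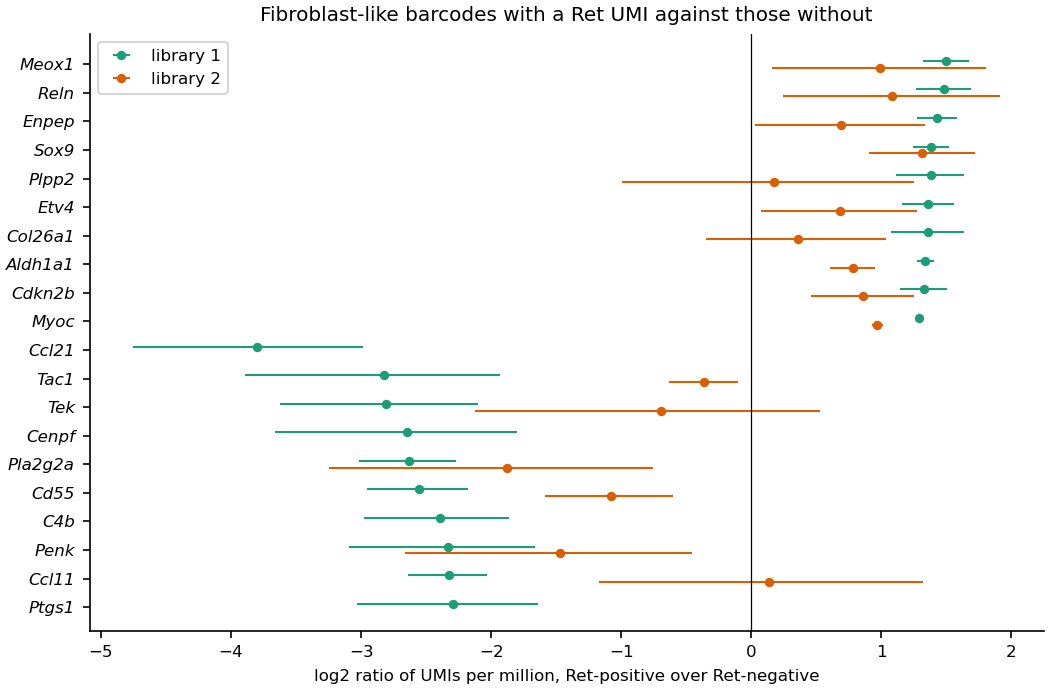
Log2 ratio of CPM in fibroblast-like barcodes with a Ret UMI over those without (horizontal axis) for the 10 highest and 10 lowest genes of library 1 (vertical axis), in library 1 and, where 20 or more UMIs were counted, in library 2; bars are exact 95% counting intervals. All 10 genes at the top are above 0 in both libraries, and Ccl11 is the lower gene of library 1 that is not below 0 in library 2.

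The summed Ret-positive fibroblasts of library 1 differed from the Ret-negative ones in other transcripts. Their depths were near each other (medians of 7691.5 and 7835 UMIs). Over all genes tested 3.01% were past 2-fold higher and 6.15% past 2-fold lower in them. Among the 6780 genes with at least 500 UMIs the largest ratios were those of Meox1 (log2 ratio 1.5, 1.32 to 1.67), a mesodermal homeobox gene, and Reln (1.48), which encodes the secreted glycoprotein reelin. Sox9 (1.38), a transcription factor of cartilage and other mesenchyme, Etv4 (1.36), an ETS factor known as a target of receptor tyrosine kinase signalling, Aldh1a1 (1.34), a retinoic acid synthesis enzyme, and Myoc (1.29) were also among the 10 highest. Etv5 stood at 1.13. The largest differences downward were those of Ccl21 (-3.80), Tac1 (-2.82), Tek (-2.81), Cenpf (-2.65), Pla2g2a (-2.63) and Cd55 (-2.55). These genes were chosen in library 1 after their values were seen. In library 2, which the choice did not use, all 10 of the higher genes were above 0, with Sox9 at 1.32 (0.91 to 1.72) and Myoc at 0.97 (0.93 to 1.01), and the intervals of Plpp2 and Col26a1 included 0. Of the 6 lower genes measured there, 5 were below 0. The background in library 2 was 1.95% past 2-fold higher and 4.92% past 2-fold lower, and of the 10 genes only Reln and Sox9 were past 2-fold. Markers of other cells were low on both sides of library 1, beside fibroblast markers at 123897 and 122857. Neuron markers summed to 40.8 and 52.0 CPM with and without a Ret UMI (4 of 9 and 0 of 9 at 0), glia markers to 43.1 and 83.8 (none of 7 at 0), perineurial markers to 180 and 143 (1 of 6 at 0 on each side) and cartilage or bone markers to 103 and 39.9 (1 of 6 and 0 of 6 at 0). Of the cartilage or bone sums, 91.2 and 35.0 CPM were Sox9 alone, which is also among the 10 genes above. The part of these lists in the result was not tested.

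In libraries 1 and 2, Ret-positive fibroblasts had Gfra2 more often than Ret-negative ones. In library 1, 33.9% of the 746 had a Gfra2 UMI (30.5% to 37.4%) against 20.6% of 5837 (19.6% to 21.7%), and in library 2, 54.2% of 107 (44.3% to 63.9%) against 30.0% of 293 (24.8% to 35.6%). Thinned to 3000 UMIs, the shares of library 1 were 18.4% and 10.3%, and those of library 2 were 36.5% and 16.9%. Thinned to 1000 UMIs they were 9.09% (4.45% to 16.1%) and 4.16% (3.69% to 4.68%) in library 1. In library 2 they were 16.7% of 18 and 9.28% of 377, and the intervals overlapped in both libraries. Library 3 gave 23.2% of 56 and 30.1% of 1199, and 7.14% of 28 and 19.3% of 1160 when thinned to 3000, each with overlapping intervals. Gfra3 was found in 3 of the 746 Ret-positive fibroblasts of library 1.

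Within the neuron-like barcodes of 10000 UMIs or more, the receptors were divided between marker lists. In library 2, 256 barcodes passed the nonpeptidergic list (P2rx3, Scn11a, Lpar3 and others) and 227 the peptidergic list (Calca, Tac1 and others). Ret stood at 927 CPM in the first (914 to 941) and 261 in the second (252 to 270). Gfra2 stood at 559 and 21.9, and Gfra3 at 21.0 and 276, so the co-receptors lay on opposite sides. The 154 barcodes between lists had Ret at 585, Gfra2 at 215 and Gfra3 at 28.2.

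Library 3 had the same order with smaller steps. Ret stood at 168 in 53 nonpeptidergic barcodes (150 to 187), 81.6 in 545 peptidergic ones (77.8 to 85.5) and 59.4 in 116 barcodes of the large-diameter list (Nefh, Ntrk2, Ntrk3, Pvalb, Spp1; 53.3 to 65.9). Gfra2 stood at 61.3, 13.4 and 48.8, and Gfra3 at 108, 173 and 15.1. Of the large-diameter barcodes, 33.6% had a Ret UMI, where 100% of the nonpeptidergic ones did (93.3% to 100%). Most of the deep barcodes of library 3, 825 of 1540, fell between lists, with Ret at 141, Gfra2 at 44.9 and Gfra3 at 139. Nrtn ran the other way: 110 of its UMIs lay in the large-diameter barcodes, at 18.5 CPM (15.2 to 22.3), against 0.572 in the peptidergic ones (0.296 to 1.0) and none in the nonpeptidergic ones, where the upper limit is 1.90. In library 2 it stood at 4.22 in peptidergic barcodes, 5.99 in nonpeptidergic ones and 16.9 in those between lists.

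**Figure D3:**
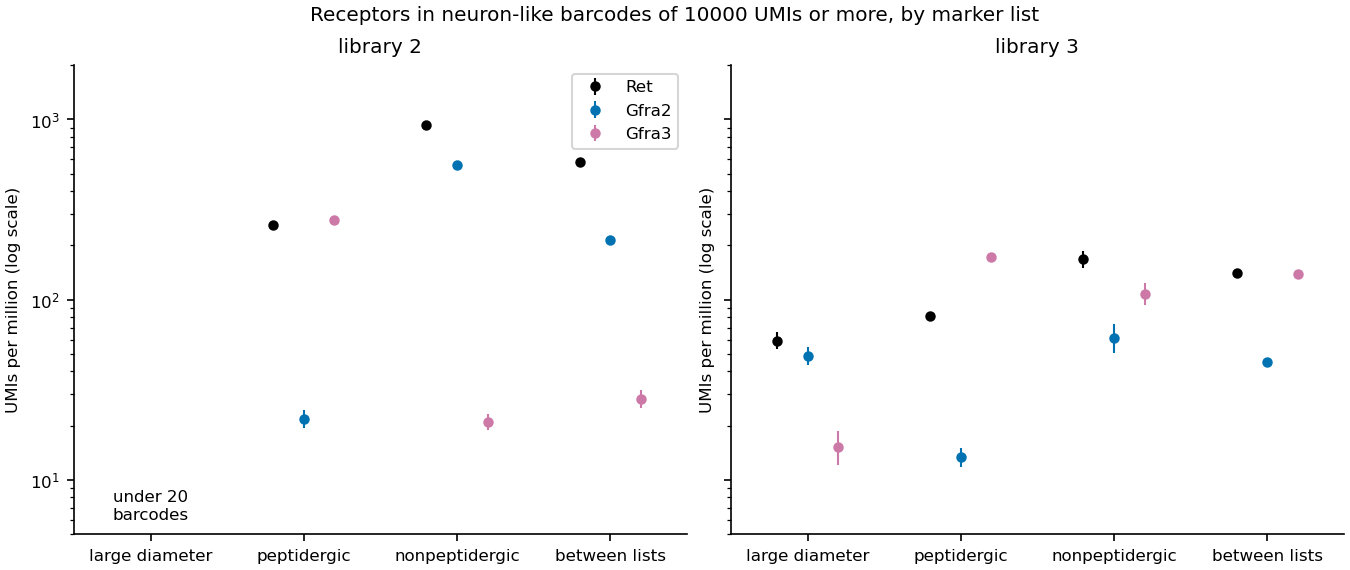
Level of Ret, Gfra2 and Gfra3 in CPM on a log scale (vertical axis) in neuron-like barcodes of 10000 UMIs or more, by neuronal marker list (horizontal axis) in libraries 2 and 3; bars are exact 95% counting intervals. Gfra2 is high and Gfra3 low in the nonpeptidergic barcodes of library 2 (559 and 21.0), and the reverse holds in the peptidergic ones (21.9 and 276).

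Among single deep neurons Ret varied widely. In library 2 the level per barcode was 61.8 CPM at the 10th percentile, 513 at the median and 1353 at the 90th, and 27 of 648 barcodes had no Ret UMI. In library 3 the median was 83.9 and the 90th percentile 258, and 403 of 1540 had none. Gfra2 and Gfra3 were at 0 in 234 and 284 barcodes of library 2, and in 676 and 312 of library 3.

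Thinned to 10000 UMIs, 563 of 648 deep neurons of library 2 (86.9%) and 783 of 1540 of library 3 (50.8%) kept a Ret UMI. In library 2 the Ret-positive neurons held more P2rx3, an ATP-gated channel of nonpeptidergic nociceptors (log2 ratio of UMIs per barcode 2.23, 1.94 to 2.54), Scn11a, a nociceptor sodium channel (1.76, 1.5 to 2.04), and Lpar3 (2.41, 1.34 to 3.74). They held less Nefh, a neurofilament of large-diameter neurons (-0.94, -1.13 to -0.75), and Tac1, the substance P precursor (-0.74, -0.79 to -0.69). The largest differences of library 3 were in large-diameter markers, with Pvalb at -3.65 (-3.87 to -3.44) and Ntrk2 at -2.42 (-2.77 to -2.09). Scn11a stood at 0.91 (0.81 to 1.01) and P2rx3 at 0.39 (0.31 to 0.47) there. Mrgprd, a receptor of nonpeptidergic nociceptors, had no UMI in the thinned barcodes of library 2.

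The overlap of Ret with a co-receptor in single neurons was described for Gfra2 and Gfra3. In whole barcodes, 50.3% of 1796 Ret-positive neuron-like barcodes of library 2 had a UMI of either (47.9% to 52.6%), against 16.7% of 3217 Ret-negative ones, and in library 3 91.8% of 1232 (90.1% to 93.3%) against 46.4% of 828. Depth moves both genes together in such a count. In a separate thinning of the deep barcodes to 10000 UMIs, the shares were 77.0% of 569 (73.3% to 80.4%) against 51.9% of 79 (40.4% to 63.3%) in library 2, and 82.5% of 784 (79.7% to 85.1%) against 52.1% of 756 (48.5% to 55.7%) in library 3. Each co-receptor was then taken alone. In library 2 Gfra2 stood at 54.0% against 19.0%, and Gfra3 at 33.2% (29.3% to 37.2%) and 36.7% (26.1% to 48.3%). The direction of Gfra3 there was not the same in every reading: in the other draw it was 30.6% against 27.1%, with a log2 ratio of UMIs per barcode of 0.89 (0.47 to 1.33), and with 5 UMIs or more as the mark it was 30.0% (26.2% to 34.0%) against 23.4% (15.3% to 33.3%). In library 3 Gfra3 stood at 72.7% against 40.3%, and Gfra2 at 30.7% (27.5% to 34.1%) against 22.2% (19.3% to 25.4%).

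In deep neurons of library 2, the co-receptors kept apart after thinning to 10000 UMIs and with a mark of 5 UMIs or more. Of 322 thinned neurons with Gfra2, 18.9% had Gfra3 (14.8% to 23.7%), against 48.2% of 326 without (42.6% to 53.7%). In library 3 the shares were 59.4% (54.5% to 64.2%) and 55.9% (52.9% to 58.8%), with overlapping intervals. With 5 UMIs or more as the mark of a positive whole barcode, the shares were 8.97% and 45.3% in library 2. In library 3 they were 45.2% and 42.1%. With any UMI as the mark, 52.4% of 414 whole deep barcodes of library 2 with Gfra2 had Gfra3. Without Gfra2 it was 62.8% of 234, and the intervals overlapped. Over all whole neuron-like barcodes of library 2 the order was the opposite, at 25.6% of 1036 with Gfra2 and 10.1% of 3977 without. Depth moves both genes together in these whole-barcode counts.

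**Figure D4:**
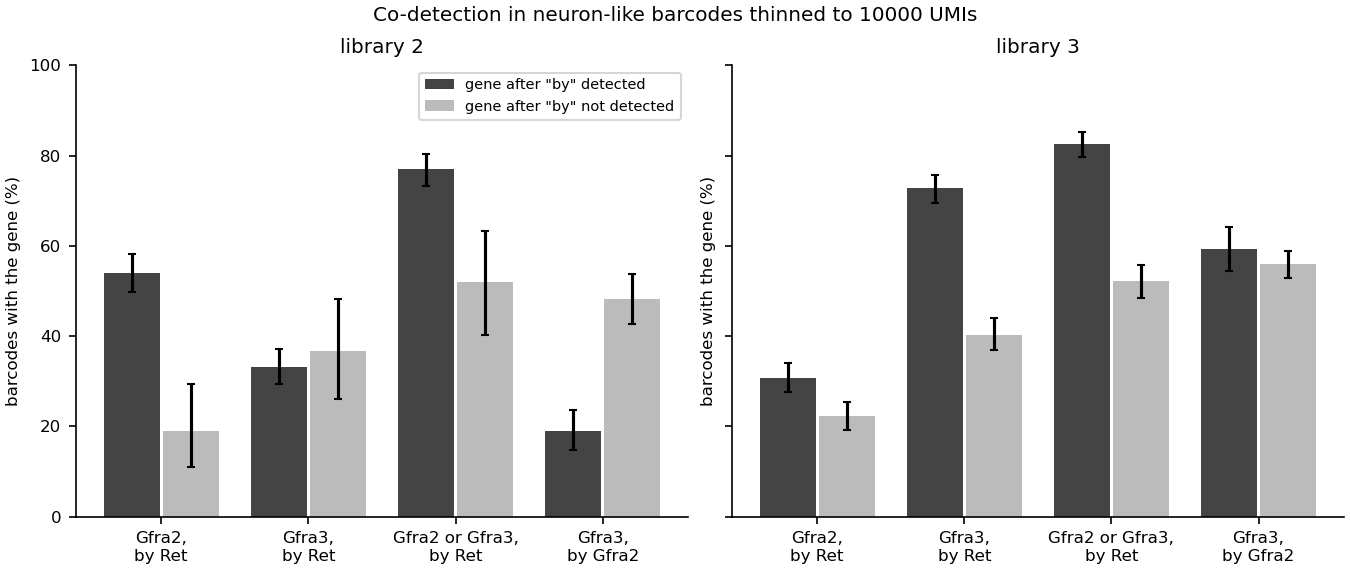
Share of neuron-like barcodes, thinned to 10000 UMIs each, that had a UMI of the gene named first below each pair of bars (vertical axis, percent), split by detection of the gene named after "by" (dark detected, light not detected), in libraries 2 and 3; bars carry exact 95% counting intervals. In library 2, Gfra2 is found in 54.0% of Ret-positive and 19.0% of Ret-negative barcodes, and Gfra3 in 18.9% of Gfra2-positive and 48.2% of Gfra2-negative ones.

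In glia the overlap was small and rested on few barcodes. In library 2, 26 of 168 glia-like barcodes with a Ret UMI had a co-receptor (15.5%; 10.4% to 21.8%), against 10.8% of 1004 without (8.91% to 12.8%), with overlapping intervals. Thinned to 3000 UMIs the shares were 3.70% of 54 (0.452% to 12.7%) and 3.58% of 950 (2.49% to 4.97%). In library 3, 0 of 20 had one (upper bound 16.8%), against 14.7% of 292. In library 4, where glia had no Ret UMI, Gfra2 and Gfra3 overlapped: 44.9% of 1205 Gfra2-positive glia-like barcodes had Gfra3 (42.1% to 47.8%), against 27.2% of 4755 (25.9% to 28.5%). Thinned to 3000 UMIs the shares were 100 of 500 (16.6% to 23.8%) and 15.4% (14.4% to 16.4%), and thinned to 1000 they were 8.72% (5.16% to 13.6%) and 5.89% (5.29% to 6.53%), where the intervals overlapped.

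The glia-like barcodes of library 4 differed by marker list. The nonmyelinating or immature list (Ncam1, L1cam, Ngfr, Gfap, Scn7a, Sox2) took 2265 and the myelinating list (Mbp, Prx, Mag and others) 1139. Of the 5 members tested, 4 were past 2-fold higher in the first and none lower, where 11.1% of 11617 genes were past 2-fold higher and 4.22% lower. Gdnf stood at 15.5 against 4.52 CPM (log2 ratio 1.77, 1.32 to 2.26), Gfra3 at 90.3 against 24.6 (1.88, 1.68 to 2.07), Gfra2 at 46.4 against 7.43 (2.64, 2.30 to 3.0) and Artn at 2.5 against 0.201 (3.64, 1.71 to 6.72, with 2 UMIs on the lower side). Nrtn was within 2-fold (0.39, -0.61 to 1.49). Fibroblast markers also differed, at 7222 and 4263 CPM (none of 6 at 0). Glia markers ran the other way, at 5104 and 14375 (none of 7 at 0), so the first group held more fibroblast than glia marker RNA. The part of these differences in the result was not tested. The fibroblast-like barcodes of the library lay below both groups for Gdnf (0.961) and Gfra3 (3.60), and above both for Gfra2 (67.2) and Artn (5.23). In library 3, Gfra3 stood at 105 in 49 nonmyelinating or immature barcodes (62.1 to 166) and 10.5 in 196 myelinating ones (5.22 to 18.7). Library 2, with 250 and 139 such barcodes, had Gfra2 at 17.2 and 20.8 (-0.28, -1.30 to 0.84), Gfra3 at 12.1 and 5.20 (1.22, -0.55 to 3.62) and Ret at 18.5 and 46.8 (-1.34, -2.15 to -0.53), so the order of Gfra2 in library 4 was not seen there. Libraries 1 and 3 had that order on few UMIs. In library 1 Gfra2 stood at 74.1 (43.2 to 119; 17 UMIs) and 11.2 (1.35 to 40.3; 2 UMIs). In library 3 it stood at 17.5 and 4.75 on 3 and 5 UMIs, with overlapping intervals.

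**Figure D5:**
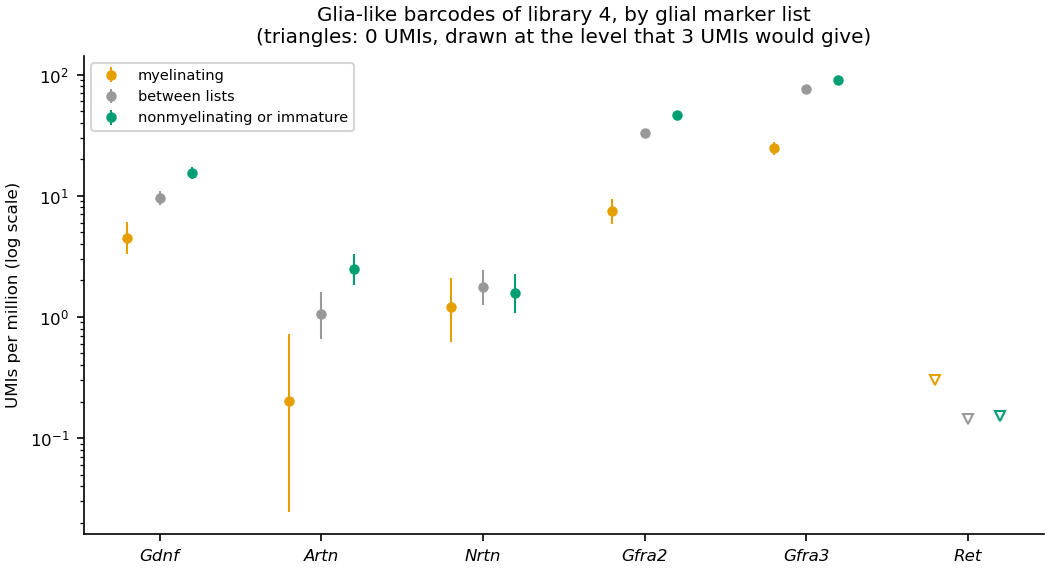
Level of the 6 members in CPM on a log scale (vertical axis) in glia-like barcodes of library 4 by glial marker list (colours); points are sums over barcodes, bars are exact 95% counting intervals and open triangles mark 0 UMIs, drawn at the level 3 UMIs would give. Gdnf, Gfra2 and Gfra3 are lowest in the myelinating barcodes (4.52, 7.43 and 24.6) and highest in the nonmyelinating or immature ones (15.5, 46.4 and 90.3), while Ret is at 0 in all 3.

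Set against each other within a library, neurons held more of the family than glia. A gene was tested with 20 or more UMIs over both sides and called past 2-fold. In library 2, 5 of 5 tested members were higher in neuron-like than in glia-like barcodes, where 33.6% of all genes were higher and 22% lower, and the members' median log2 ratio was 4.40 against 0.36 over all genes. Ret stood at 5.03 (4.83 to 5.24), Gfra2 at 4.98 (4.69 to 5.27), Gfra3 at 4.40 (4.0 to 4.83) and Nrtn at 2.12 (1.47 to 2.84), and the interval of Artn included 0 (-0.45 to 4.67). In library 3, 4 of 5 were higher and 1 lower, where 21.1% of genes were higher and 24.6% lower. Ret stood at 3.06 (2.43 to 3.77), Gfra3 at 2.11 (1.69 to 2.56) and Gfra2 at 2.0 (1.22 to 2.91). Nrtn and the 1 lower gene, Artn, each rested on 1 glial UMI and had intervals that included 0. With a mitochondrial limit of 10% the count of library 2 was 3.

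Glia against fibroblasts gave no common direction. In library 1, 2 of 5 members were higher (background 25.9%) and 2 lower (12.2%). In library 2 it was 1 and 2 of 4 (14.5% and 16.9%), in library 3 2 and 3 of 5 (12.3% and 19.3%), and in library 4 2 and 3 of 5 (15.1% and 18.1%). Gfra3 was past 2-fold higher in glia in libraries 1, 3 and 4, at 3.62 (on 7 glial UMIs), 2.26 and 4.31, and at -0.08 in library 2. Gfra2 was lower in libraries 2, 3 and 4, at -3.32, -2.95 and -1.03, and at 0.32 in library 1. Ret was lower in glia in libraries 1 and 2, at -2.12 (0 glial UMIs set to the floor of 3; exact upper limit -1.82) and at -1.44 (-1.75 to -1.12), and higher in library 3, at 1.03 (0.22 to 1.79). In libraries 1 to 3 the calls of Nrtn and Artn rested on 1 to 20 glial UMIs.

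The GDNF pathway list held 28 other genes, of which 27 were found: other ligands and receptors, adaptors, kinases and feedback regulators. Neurons against glia, 6 of 22 tested were higher and 8 lower in library 2, and 5 and 7 of 22 in library 3. Over all genes 33.6% were higher and 22% lower in library 2, and 21.1% and 24.6% in library 3. The medians were 0.13 and -0.26, against 0.36 and 0 over all genes. Higher in both libraries were Dok4 (3.11 and 2.84) and Dok5 (4.24 and 3.40), docking proteins known to bind RET, and Plcg1 (2.17 and 2.01), phospholipase C gamma. Lower in both were Gdf15 (-4.72 and -2.79), a distant family member, the adaptor Gab1 (-2.74 and -3.54), the kinase Src (-2.06 and -1.95), and the feedback inhibitors Spry2 (-2.86 and -2.01) and Dusp6 (-3.52 and -5.63). Past 2-fold on opposite sides in libraries 2 and 3 were Etv4 (-4.53 and 2.42) and Grb10 (1.91 and -2.41).

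Glia against fibroblasts, 6, 5, 5 and 8 of 24, 21, 21 and 25 tested pathway genes were higher and 3, 3, 6 and 6 lower in libraries 1 to 4. Over all genes 25.9%, 14.5%, 12.3% and 15.1% were higher and 12.2%, 16.9%, 19.3% and 18.1% lower. Past 2-fold higher in all 4 were Ncam1, a RET-independent receptor for GDNF (7.73, 6.35, 2.53 and 3.83), Sdc3, the syndecan that binds GDNF (3.04, 2.90, 1.06 and 1.24), and Src (2.19, 1.62, 1.86 and 1.27). Past 2-fold lower in all 4 were the adaptor Grb10 (-3.85, -5.05, -3.09 and -2.41) and Plcg1 (-2.28, -1.96, -2.15 and -2.26). In the Ret-positive fibroblasts of library 1, 4 of 24 were higher (Sdc3, Gab1, Etv4 and Etv5) and 1 lower (Gas1), and the interval of Gab1 included 0. In library 2 none of 15 was past 2-fold.

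The genes most like each member were ranked by Pearson's r of log2(CPM + 1) over 23 class-by-library sums of at least 50 barcodes, among 13152 genes. The sums share libraries and depths, and r is a description. Ret was closest to Necab1 (0.96), Dner (0.93) and Phactr3 (0.93), Gfra3 to Scn9a (0.91), Patz1 (0.88) and Map2 (0.87), and Gfra2 to Cul7 (0.85), Trpc1 (0.85) and Adcy5 (0.82). Artn was closest to Mrgprf (0.85), Lmod1 (0.84) and Adamts15 (0.82), Gdnf to AABR07044900.1 (0.78) and Col27a1 (0.74), and Nrtn to Ube2o (0.70), Gins3 (0.68) and LOC103694857 (0.66). Between members the highest r were 0.54 for Gdnf with Artn and 0.45 for Gfra2 with Gfra3, and Ret with Gdnf stood at -0.32.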

How the data were processed

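Single-cell libraries were made with a droplet 3' kit, per the labels' protocols. The deposited values were UMI counts per gene and barcode in 1 matrix of 25399 genes and 41444 barcodes with 336170988 UMIs, not normalized, made with Cell Ranger 3.1.0 per the file headers. Among the tools and builds in the submitters' processing notes are Seurat, Rnor_6.0 and CASAVA 1.8. Levels are CPM over the summed UMIs of a class. Class scores were means over markers of log counts per 10000 UMIs, scaled to the 95th percentile of positive barcodes and capped. Ratios of levels carry exact conditional 95% intervals, shares Clopper-Pearson intervals, and levels Poisson intervals. All of them cover counting error only. A side at 0 was given a floor of 3 UMIs per side. Thinning drew UMIs without replacement. Cells are not replicates and each group had 1 sample, so nothing was tested between groups. The plan named 3 co-receptors, and 2 were used. No step beyond the class margin addressed doublets in the main levels, and how many doublets the margin left was not tested. Scrublet (scanpy 1.11.5) called 4.02% of library 1 and under 0.5% of the others, where it did not work.

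The members and lists were chosen with earlier results of these data known. The class thresholds, the depth of 10000 UMIs, the mark of 5 UMIs, the glial-list contrast and the comparison of Ret-positive with Ret-negative fibroblasts were chosen after seeing the data. The text names all members, pathway genes past 2-fold in every library of a contrast, the 3 genes most like each member, and the neuronal subclass markers in Ret-positive neurons. Genes named for Ret-positive fibroblasts, and Etv4 and Grb10 in neurons, fall outside that rule. Some genes that the rule names are not reported here. The ratio script was checked on simulated counts. Scripts ran under matplotlib 3.10.9, scipy 1.17.1, numpy 2.4.6, Python 3.11.15 and pandas 2.3.3.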

Additional observations from a re-analysis of the deposited data

Results flagged for a closer look

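Ret UMIs lay in barcodes that no class level uses: 11554 of 50509 (22.9%) were in barcodes removed before classes were drawn, 11343 of them over the mitochondrial limit. In library 2 the 570 barcodes over that limit held 10335 Ret UMIs, or 1099 CPM (1078 to 1121), against 417 CPM in the 8426 kept ones, and 44.9% of them had a Ret UMI. All 9 neuronal markers stood at a like summed level in both, at 15246 and 15295 CPM. Ret per 1000 UMIs of these 9 was 72.1 and 27.3. The ratios given earlier used 7 markers and cannot be set beside these. In library 3 the 684 barcodes over the limit held Ret at 192 CPM, against 94.2 in the kept ones.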

How the results depend on the processing

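No paired analysis was possible because each group had 1 sample and the barcodes carry no replicate number. Gdnf in the glia-like barcodes of library 4 stayed within its interval under every alternative run. An alternative added after seeing the data left out barcodes with a shared sequence, of which 91, 66, 64 and 84 were kept in libraries 1 to 4. It moved no count compared here over 1.5-fold and no share out of its counting interval. The Ret level in fibroblasts of library 1 (15.9 CPM) was 17.8 without the 5% of barcodes with most UMIs and 20.03 as a mean over barcodes. Of 379 other values of 54 levels, 328 stayed within the counting interval and 30 moved over 1.5-fold, 13 of them of receptors. Scrublet removal was applied to library 1 only. Causes were not tested.

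Shares that need a UMI moved with depth. Neurons with Ret in library 2 (35.8%) were 30.2% with a mitochondrial limit of 10%, 77.8% with at least 1000 genes, 31.7% with no gene minimum, 30.1% without the top 5%, 18.03% when 2 UMIs were needed, 31.3% and 62.8% in separate draws of 1000 and 3000 UMIs, and 95.8% at 10000 UMIs or more. In library 3 (59.8%) the values in that order were 55.4%, 66.9%, 35.1%, 56.01%, 48.5%, 9.59%, 22.8% and 73.8%, and 65.8% with a margin of 2. Ret-positive neurons of library 2 with a co-receptor (50.3%) were 38.9% with the 10% limit and 38.9% without the top 5%, 79.5% with 1000 genes, 57.7% with 2 UMIs, 28.8% and 61.3% thinned, and 87.9% at 10000 UMIs. In library 3 (91.8%) they were 93.7% with 1000 genes, 83.8% with no minimum, 93.4% with a margin of 2, 21.0% and 44.5% thinned, and 95.3% at 10000 UMIs. Glia of library 2 (15.5%) gave 6.67% with 2 UMIs and 0 when thinned to 1000.

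Counts of members past 2-fold also moved. With the 10% limit, neurons against glia had 3 higher in library 2 and 0 lower in library 3, and glia against fibroblasts had 1 lower in libraries 1, 2 and 3 and 1 higher in library 3. With a minimum of 100 UMIs, glia against fibroblasts had 0 higher in libraries 1 and 2 and 1 higher and 1 lower in library 3, and neurons against glia had 0 lower in library 3; fewer genes are tested there. With a minimum of 5 UMIs the last count was 2, and without the top 5% it was 0. A margin of 2 gave 0 higher for glia against fibroblasts in library 2, and 1 higher and 1 lower in library 3. In library 3 the higher count was 1 with no gene minimum and 1 as a mean over barcodes, and the lower count was 1 with 1000 genes.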

Other observations

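Barcodes that passed no class also held the ligands and receptors. In library 4, 1057 such barcodes held 60 Gdnf UMIs, or 10.5 CPM (8.03 to 13.5), and Gfra3 at 58.7, beside 10.9 and 71.2 in glia-like barcodes. In library 3, 2404 such barcodes held Ret at 43.2 CPM (38.4 to 48.4), between the neuron-like and glia-like levels of 115 and 13.8.

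Among the glia-like barcodes of library 4, those with a Gdnf UMI had Gfra3 in 42.3% of 423 (37.6% to 47.2%), against 29.9% of 5537 without (28.7% to 31.1%). Thinned to 3000 UMIs the shares were 20.4% (14.5% to 27.4%) and 15.8% (14.9% to 16.8%), with overlapping intervals. Gfra3 was not alone in this. Gfra2 was found in 28.8% with and 19.6% without a Gdnf UMI, and Artn in 2.84% and 1.08%. Thinned to 3000, Gfra2 stood at 13.0% and 8.80% and Artn at 0.617% and 0.389%, with overlapping intervals for both.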
